A study of Mus musculus with 10 samples.

Results

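S100 calcium-binding proteins and annexins were followed in regulatory T (Treg) cells labelled WT or Fntb KO, Fntb being a gene of protein farnesyltransferase. The group holds 10 genes, 7 S100 genes and 3 annexins, out of 22180 genes measured: S100a4, S100a6, S100a10, S100a11, S100a13, S100a8, S100a9, Anxa1, Anxa2 and Anxa6. Each was found by its symbol in the platform annotation, and each had 1 probe set. The genes were chosen by symbol but with their measured log2 levels in Fntb KO and WT Treg cells already known. Those levels are therefore given as a description, and no p-value is attached to any of the 10. Where a gene of the 10 is said to pass or not pass the threshold applied to all genes, also in refits, this too is description and not support. S100a8 and S100a9, which are characteristic of myeloid cells, are treated apart from the other 8.

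S100 proteins are small proteins of the EF-hand type that change shape when they bind calcium and then attach to partner proteins. Annexins bind phospholipid membranes in the presence of calcium, and several of them join with an S100 protein into a complex that links the membrane to the actin cytoskeleton. In T cells, high S100a4, S100a6 and S100a10 transcript levels are known as features of effector and memory cells.

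Gene expression was measured on 10 one-colour Affymetrix arrays, 5 of WT Treg and 5 of Fntb KO Treg. The cells of both groups were sorted as CD4+ YFP+ from spleen and pLN of chimeric mice, WT chimeras for one group and Foxp3CreFntbfl/fl chimeras for the other. In the second group a Cre driven from Foxp3, the lineage factor of Treg cells, deletes Fntb, the beta subunit of farnesyltransferase, so the deletion is limited to cells that have expressed Foxp3. The labels name no allele for the WT group, nor the source of YFP, the age of the mice, the host of the chimeras, any pooling, or whether each sample is a separate animal. Any p-value therefore rests on the spread from sample to sample alone, and that spread may be technical. All levels are RMA values on the log2 scale, on which a difference of 1 is a 2-fold change, and every difference is Fntb KO minus WT.

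The targeted transcript matched the labels. The log2 level of Fntb was 6.12 ± 0.16 in the WT arrays and 5.47 ± 0.12 in those of Fntb KO (SD, n = 5 each) and lower in 5 of 5 arrays. The limma adjusted p was 0.00442, and the two-sided p of an exact permutation test was 0.00794, its minimum for groups of this size. The Fntb KO arrays still read 5.31 to 5.62, so the signal was only partly reduced. Where the probe set lies relative to the deleted exons was not examined, and the arrays measure neither the protein nor its activity. Foxp3 was 10.67 ± 0.03 and 10.53 ± 0.05, and all 8 measured T cell markers lay at log2 means above 9 in both groups. Array medians ran from 4.09 to 4.25. The 3 lowest belonged to WT 2, Fntb KO 1 and Fntb KO 2, and values are also given within and without these arrays where it matters. Among all genes 179 (0.807%) were lower and 67 (0.302%) higher in Fntb KO at a limma adjusted p under 0.05, and 2054 (9.26%) had an unadjusted p under 0.05. As a guide to unexpressed genes, the 1105 olfactory receptor genes had a 95th percentile of 4.19.

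The 8 S100 and annexin genes other than S100a8 and S100a9 were all at negative differences (median -0.48), where the median of all 22180 genes was 0.01. Of the 10 genes, 3 passed the threshold as lower (S100a4, S100a6 and S100a11) and 0 as higher, beside 0.807% of all genes lower and 0.302% higher. In 4 of the 10 (S100a4, S100a6, S100a10 and S100a11) every Fntb KO array lay below every WT array, as in 1.65% of all genes, and in 0 of the 10 did every one lie above, as in 1.01%. Because the genes were chosen with this contrast known, nothing is read from these shares. No filter on dim genes was applied, and on the mean of all arrays 9 of the 10 lay at or above the median gene level, Anxa1 being below it. S100a8 was among the 9 through its Fntb KO arrays, as its WT mean of 3.75 was below that level of 4.19. In whole samples, fewer cells that express a gene and less of its RNA per cell cannot be told apart.

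S100a4 and S100a6 had the largest differences of the 10 genes. S100a4, also called metastasin, binds non-muscle myosin and is linked to cell motility. It read 8.56, 9.31, 9.25, 8.97 and 8.78 in WT 1 to WT 5, and 6.84, 6.81, 7.35, 6.26 and 6.39 in Fntb KO 1 to Fntb KO 5 (log2 levels). The groups were far apart, with 1.21 between the lowest WT array and the highest Fntb KO array, Fntb KO 3. The difference was -2.25 (SE 0.196), or 4.74-fold, between 8.98 ± 0.32 and 6.73 ± 0.43 (SD, n = 5 each).

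S100a6 encodes calcyclin, which binds annexins and the ubiquitin-ligase adaptor Cacybp. Its log2 levels were 9.05, 9.41, 9.52, 9.05 and 8.83 in WT 1 to WT 5 and 7.16, 7.30, 7.27, 6.39 and 6.77 in Fntb KO 1 to Fntb KO 5. The groups were separated by 1.53, more than in S100a4, and Fntb KO 4 and Fntb KO 5 were the lowest arrays for both genes. The difference was -2.20 (SE 0.180), or 4.58-fold, between 9.17 ± 0.29 and 6.98 ± 0.39 (SD, n = 5 each).

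Both differences stayed close to their size in every subset of the arrays examined. Among the low-median arrays alone, WT 2 against Fntb KO 1 and Fntb KO 2, the difference was -2.49 for S100a4 and -2.18 for S100a6. Among the other 7 arrays it was -2.23 and -2.30. Leaving out each array in turn gave -2.40 to -2.13 for S100a4 and -2.28 to -2.05 for S100a6, and both passed the threshold without any 1 of the 10 arrays.

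**Figure D1:**
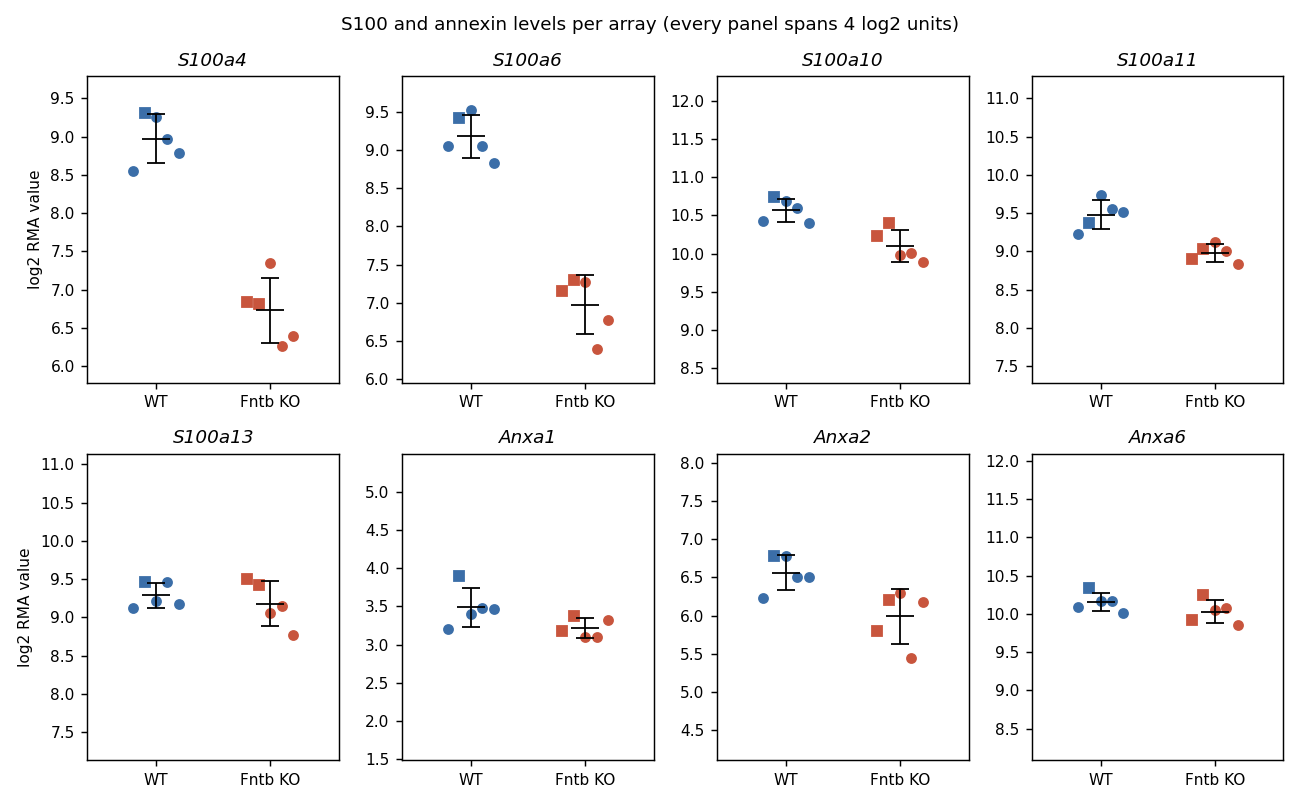
Log2 RMA value of 8 S100 and annexin genes in each of 5 WT (blue) and 5 Fntb KO (red) arrays, with the group mean and SD in black; squares are the 3 arrays with the lowest medians, and every panel spans 4 log2 units. The groups lie 1.21 and 1.53 apart for S100a4 and S100a6, barely part for S100a10 and S100a11, and overlap for S100a13 and the annexins.

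The members most like these 2 genes across all 10 arrays were each other. Likeness was measured as the root mean square difference between log2 values centred on each gene's mean, and over all 22180 genes S100a6 was the nearest to S100a4 and S100a4 the nearest to S100a6, at 0.186. Next for both was the chemokine receptor Ccr4, which guides T cells to skin and inflamed tissue, at 0.255 from S100a4 and 0.224 from S100a6. The other nearest genes of S100a4 were the cystatin family gene Cst7 (0.377), the myotubularin Mtmr9 (0.416) and the class I myosin Myo1f (0.432). Those of S100a6 were Mtmr9 (0.367), Cst7 (0.423) and the integrin chain Itgae (0.431). All 5 had lower levels in Fntb KO, with differences of -2.28 for Ccr4, -2.12 for Mtmr9, -1.97 for Cst7, -1.58 for Myo1f and -1.47 for Itgae. The measure is dominated by the distance between the groups and is given as a description. Of the remaining genes of the family, Anxa2 came nearest to S100a4, at rank 126 of all genes, followed by S100a11 at rank 202 and S100a10 at rank 244.

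**Figure D2:**
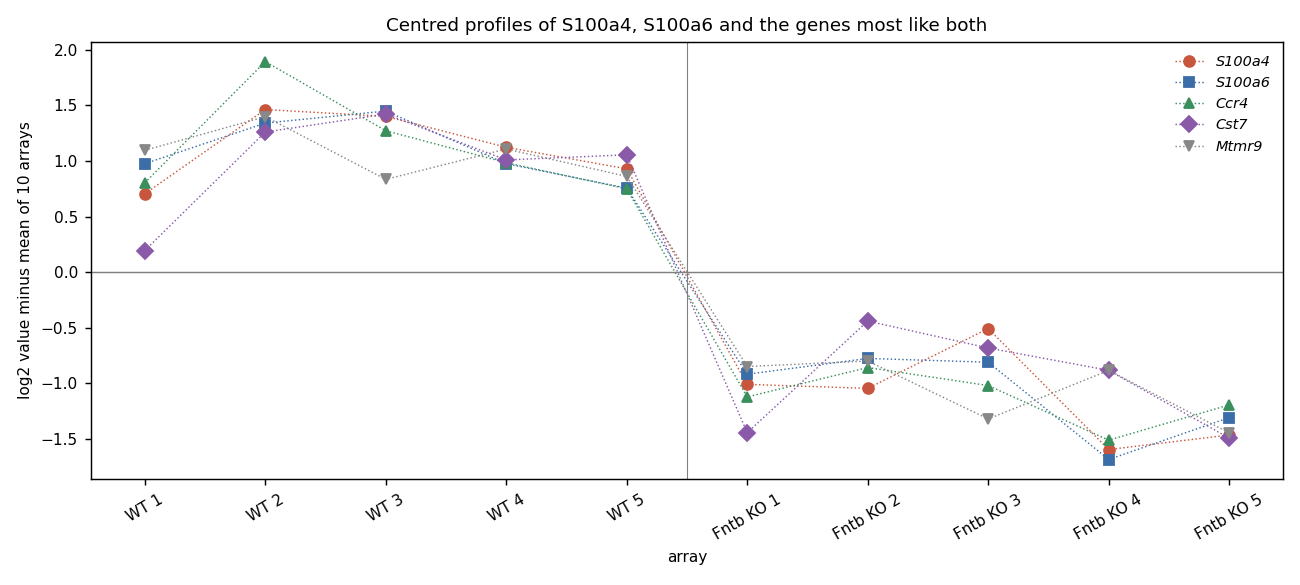
Log2 value of S100a4, S100a6 and the 3 genes among the 5 nearest of both (Ccr4, Cst7 and Mtmr9), each minus its own mean over the 10 arrays, by array; dotted lines only join the points of a gene. All 5 genes are above their mean in every WT array and below it in every Fntb KO array, and S100a4 and S100a6 differ by 0.186 on root mean square.

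S100a10 and S100a11, whose products are also known to bind annexins, had smaller differences. S100a10, or p11, binds no calcium itself and forms a stable complex with annexin A2. Its log2 levels were 10.42, 10.73, 10.68, 10.59 and 10.40 in WT 1 to WT 5 and 10.23, 10.40, 9.98, 10.00 and 9.89 in Fntb KO 1 to Fntb KO 5. The groups only just failed to overlap: Fntb KO 2, one of the low-median arrays, lay 0.003 below WT 5. The difference was -0.46 (SE 0.111), 1.38-fold, between 10.57 ± 0.15 and 10.10 ± 0.21 (SD, n = 5 each), and it did not pass the threshold. It was -0.42 among the low-median arrays and -0.57 among the others. S100a10 did pass, as lower, when a block was fitted for the low-median arrays (-0.52), without them (-0.57), without Fntb KO 2 (-0.54), with array weights (-0.48), with a second quantile normalization (-0.45) and with a trended, robust variance (-0.46).

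S100a11 binds the amino-terminal tail of annexin A1. It read 9.23, 9.37, 9.74, 9.55 and 9.51 in WT 1 to WT 5, and 8.90, 9.04, 9.12, 9.003 and 8.83 in Fntb KO 1 to Fntb KO 5 (log2 levels). The Fntb KO arrays kept within a narrow band, 0.110 below the lowest array of WT, WT 1. The difference was -0.50 (SE 0.103), 1.42-fold, between 9.48 ± 0.19 and 8.98 ± 0.11 (SD, n = 5 each). This call was close to the threshold. It was kept without WT 1 and without Fntb KO 3, and lost without each of the other 8 arrays and without the 3 low-median arrays, at differences of -0.56 to -0.44 over the 10 fits that leave out 1 array and -0.52 without the 3.

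S100a13, which takes part in the release of growth factors and cytokines that lack a signal peptide, showed no separation. It ran from 9.13 to 9.47 in WT, with a median of 9.21, and from 8.77 to 9.50 in Fntb KO, with a median of 9.15 (log2 levels). Its difference was -0.11 (SE 0.134), smaller than the SD of either group (0.16 and 0.29). In Fntb KO the low-median arrays held the 2 highest values, 9.50 and 9.42, and the difference was -0.005 within the low-median arrays and -0.25 within the others.

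Of the annexins, Anxa2 differed most. Annexin A2 bridges membranes and cortical actin and is the partner of S100a10. Its log2 levels were 6.24, 6.78, 6.78, 6.50 and 6.50 in WT 1 to WT 5 and 5.80, 6.21, 6.30, 5.45 and 6.18 in Fntb KO 1 to Fntb KO 5. WT 1 was the only WT array below a Fntb KO array, namely Fntb KO 3, so the groups overlapped by that 1 array on each side. The difference was -0.57 (SE 0.160), 1.49-fold, between 6.56 ± 0.23 and 5.99 ± 0.36 (SD, n = 5 each), and it did not pass the threshold. It was -0.77 within the low-median arrays and -0.53 within the others, and -0.44 without Fntb KO 4, the lowest array.

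Anxa1, a glucocorticoid-induced protein that acts on formyl peptide receptors when released, lay below 4.19 in every array, from 3.20 to 3.89 in WT and from 3.10 to 3.37 in Fntb KO (log2 levels). Its difference of -0.27 (SE 0.119) did not pass, and at such levels a fold can understate a true change. Anxa6, an annexin that organizes membrane cholesterol, read 10.01 to 10.33 in WT and 9.85 to 10.24 in Fntb KO. Its difference was -0.13 (SE 0.0953), with overlapping groups and no call.

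The rest of both families and their known partners were taken from fixed lists. Of the other 11 S100 genes, 0 passed the limma threshold in either direction, beside 0.807% of all genes lower and 0.302% higher. An unadjusted p under 0.05 was found in 0 of the 11, beside 9.26% of all genes. In 8 of the 11 the mean lay below 4.19 in both groups. The largest differences were in S100g (-0.25, SE 0.138, adjusted p 0.637) and S100z (0.24, SE 0.246, adjusted p 0.864). The median difference of these 11 genes was 0.11.

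Of the 9 other annexins listed, Anxa11 was not analysed here. Of the other 8, 0 passed the limma threshold in either direction, beside 0.807% of all genes lower and 0.302% higher. In 5 the mean lay below 4.19 in both groups, and 1 had an unadjusted p under 0.05 (as had 9.26% of all genes). That 1 was Anxa4, an annexin of secretory epithelia, which went from 4.83 ± 0.16 to 4.32 ± 0.31 (log2 levels, SD, n = 5 each), a difference of -0.51 at adjusted p = 0.140. It passed when a block was fitted for the low-median arrays (-0.58, adjusted p 0.0133), without them (-0.61, 0.0299) and without Fntb KO 1 (-0.63, 0.0162). Anxa3 was at -0.23 (adjusted p 0.624). The other annexins had a median difference of -0.06.

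Of 20 listed partners and receptors, Fpr1, Stub1 and Kcnk3 were not analysed here. Of the other 17, 1 fell and 0 rose, beside 0.807% and 0.302% of all genes. It was Ahnak, a giant scaffold protein that binds the complex of S100a10 and annexin A2 and has been linked to calcium entry in T cells. Its log2 levels ran from 8.10 to 8.45 in WT, with a median of 8.19, and from 7.56 to 7.91 in Fntb KO, with a median of 7.68. The groups did not overlap, and the difference was -0.51 (SE 0.103), 1.42-fold, with an adjusted p of 0.0294. The call was lost without WT 2, WT 3, WT 4, Fntb KO 1, Fntb KO 3 or Fntb KO 4 in turn and without the 3 low-median arrays, at adjusted p of 0.0726 to 0.126 and differences of -0.52 to -0.45. The other partners had differences between -0.18 and 0.23, and the median of all 17 was -0.003.

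**Figure D3:**
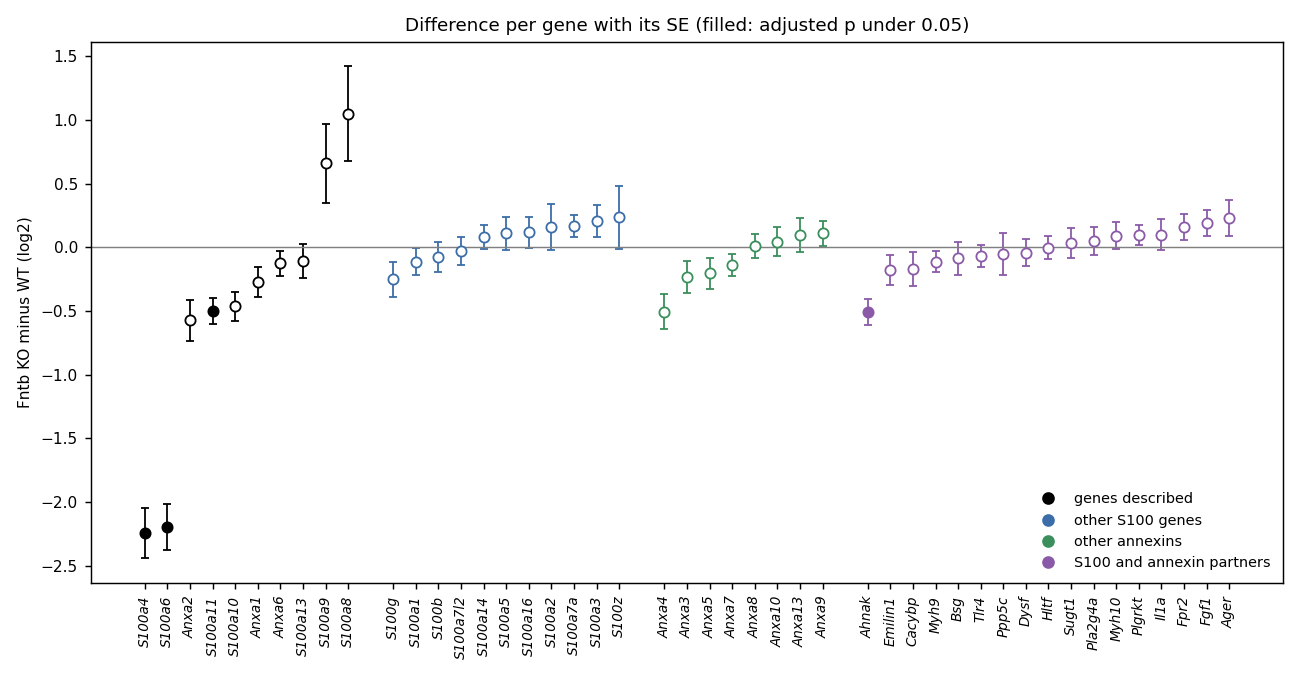
Difference in log2 level, Fntb KO minus WT, with its SE, for the 10 genes described (black), the other 11 S100 genes (blue), 8 other annexins (green) and 17 partners (purple); filled points passed an adjusted p of 0.05 over all genes. S100a4 and S100a6 stand at -2.25 and -2.20, while no gene of the other 3 lists differs by more than 0.51 in size.

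All 7 S100 genes described lie on chromosome 3, within a stretch that also holds the epidermal differentiation genes. In the RefSeq gene order (assembly GRCm38.p6) 101 genes start from S100a1 to S100a10, of which 64 were measured. Of the 57 that are not among the genes described, 0 passed the limma threshold in either direction, beside 0.807% of all genes lower and 0.302% higher. An unadjusted p under 0.05 was found in 0 of the 57, beside 9.26% of all genes. Their differences ran from -0.29 (Lce1a2, adjusted p 0.680) to 0.28 (Sprr1b, adjusted p 0.634). Only 12 of the 57 reached 4.19 in either group. S100a5, which lies between S100a4 and S100a6 in that order, was at 2.56 in the WT arrays and at 2.66 in the others, and differed by 0.11 (SE 0.132, adjusted p 0.890). The S100 genes with negative differences did not form an unbroken run: S100a4 and S100a6 lie on both sides of S100a5, S100a8 and S100a9 follow with positive differences, and S100a11 and S100a10 lie at the far end of the stretch.

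**Figure D4:**
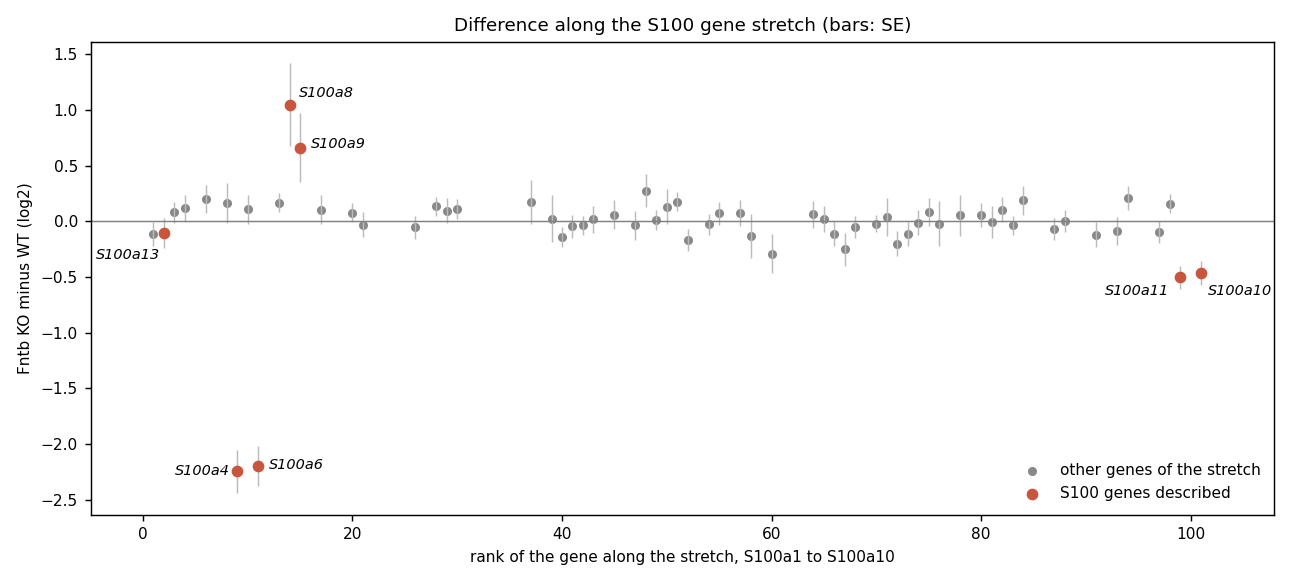
Difference in log2 level (Fntb KO minus WT, bars are the SE) against the rank of each measured gene along the stretch of chromosome 3 from S100a1 to S100a10. The other 57 genes (grey) lie between -0.29 and 0.28, S100a4 and S100a6 lie near -2.2, and S100a8 and S100a9 lie above 0.

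The promoter windows are shown for the 3 genes that passed the threshold, for Anxa2, and for the myeloid pair, because these genes carry the largest negative and the positive differences. Each line gives the 250 bases before the annotated start (RefSeq, GRCm38.p6), 5′ to 3′ on the gene's strand. Capitals mark matches, on both strands, to TGANTCA (the AP-1 motif), TATAAA (the TATA box), GGGCGG (the GC box) or GTAAACA (a forkhead motif). No match overlapped a match to another of these motifs.
S100a4 (chr3:90603520-90603769, + strand): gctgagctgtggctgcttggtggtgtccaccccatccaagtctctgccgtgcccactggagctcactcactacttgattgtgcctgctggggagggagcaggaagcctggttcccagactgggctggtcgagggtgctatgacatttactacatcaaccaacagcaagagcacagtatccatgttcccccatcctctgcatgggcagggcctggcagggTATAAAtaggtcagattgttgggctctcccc
S100a6 (chr3:90612644-90612893, + strand): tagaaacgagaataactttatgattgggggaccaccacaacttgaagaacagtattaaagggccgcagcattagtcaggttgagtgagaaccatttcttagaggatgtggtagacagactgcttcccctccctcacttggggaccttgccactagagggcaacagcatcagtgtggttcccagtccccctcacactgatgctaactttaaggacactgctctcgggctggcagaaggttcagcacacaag
S100a11 (chr3:93520246-93520495, + strand): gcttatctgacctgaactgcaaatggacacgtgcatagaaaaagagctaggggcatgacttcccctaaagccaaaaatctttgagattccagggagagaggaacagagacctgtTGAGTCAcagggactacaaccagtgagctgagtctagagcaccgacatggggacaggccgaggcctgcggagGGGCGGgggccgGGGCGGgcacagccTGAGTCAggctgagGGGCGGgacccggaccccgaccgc
Anxa2 (chr9:69453433-69453682, + strand): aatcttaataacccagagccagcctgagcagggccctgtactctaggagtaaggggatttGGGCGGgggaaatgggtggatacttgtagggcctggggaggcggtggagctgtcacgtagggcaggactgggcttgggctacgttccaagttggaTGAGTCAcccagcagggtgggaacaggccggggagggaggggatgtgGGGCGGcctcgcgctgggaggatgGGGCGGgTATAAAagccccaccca
S100a8 (chr3:90668821-90669070, + strand): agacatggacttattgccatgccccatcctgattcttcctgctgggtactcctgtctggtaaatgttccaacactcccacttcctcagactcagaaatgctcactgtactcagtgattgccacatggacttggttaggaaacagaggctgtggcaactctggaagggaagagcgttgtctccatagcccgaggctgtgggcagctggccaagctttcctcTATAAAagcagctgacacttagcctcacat
S100a9 (chr3:90695722-90695971, - strand): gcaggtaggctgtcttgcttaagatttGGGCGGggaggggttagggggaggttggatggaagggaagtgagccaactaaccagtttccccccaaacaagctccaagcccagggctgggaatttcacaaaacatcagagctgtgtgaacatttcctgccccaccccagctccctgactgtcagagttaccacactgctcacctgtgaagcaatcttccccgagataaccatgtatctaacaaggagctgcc

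Of the 10 genes, 8 had a window in the table. The AP-1 motif stood in 2 of the 8, with 2 matches in S100a11 and 1 in Anxa2, while 6.75% of all 32851 promoter windows of the same length held it. The TATA box letters were in 4 of the 8 windows, S100a4, S100a8, Anxa1 and Anxa2, against 12.4% of all windows. In S100a4 they began 31 bases before the annotated start and in S100a8 30 bases before it. The GC box letters were in 3 of the 8 (S100a11, Anxa2 and S100a9), against 32.7% of all windows, and the forkhead letters in 0 of the 8, against 3.17%. The window of S100a6 held no match to any of these motifs, so it could share none with that of S100a4. A match is a run of letters and not a tested binding site.

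S100a8 and S100a9 had positive differences. Their products form calprotectin, the main cytosolic protein of neutrophils, which is also made by monocytes. S100a8 read 3.34, 3.98, 3.79, 3.93 and 3.73 in WT 1 to WT 5, all below 4.19, and 5.27, 3.59, 6.25, 4.74 and 4.15 in Fntb KO 1 to Fntb KO 5 (log2 levels). In Fntb KO 4 of 5 arrays were above the highest WT array, Fntb KO 2 was within the WT range, and Fntb KO 3 stood highest. The difference was 1.05 (SE 0.371), between 3.75 ± 0.25 and 4.80 ± 1.03 (SD, n = 5 each), and it did not pass the threshold. The spread within Fntb KO was thus about as large as the difference.

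S100a9 followed the same arrays. Its log2 levels were 4.55, 4.70, 4.36, 4.17 and 5.01 in WT 1 to WT 5 and 5.73, 4.37, 6.35, 5.02 and 4.62 in Fntb KO 1 to Fntb KO 5. Fntb KO 3 and Fntb KO 1 were again the highest, Fntb KO 4 lay 0.01 above the highest WT array, and the groups overlapped. The difference was 0.66 (SE 0.310), between 4.56 ± 0.32 and 5.22 ± 0.82 (SD, n = 5 each), and it did not pass. Without Fntb KO 3 the differences were 0.69 for S100a8 and 0.38 for S100a9, and without Fntb KO 2 they were 1.35 and 0.87. Within the low-median arrays they were 0.45 and 0.35, and within the others 1.35 and 0.81.

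Markers of other cells that a sort could hold were read beside this pair. Of 15 neutrophil markers 0 passed the limma threshold, beside 0.807% of all genes lower and 0.302% higher. An unadjusted p under 0.05 was found in 0 of the 15, beside 9.26% of all genes. In 13 the mean lay below 4.19 in both groups, among them the granule genes Ngp, Camp, Ltf, Elane and Mpo and the surface marker Ly6g. The exceptions were Cxcr2 and Chil3. Of the 15 markers 11 had a positive and 4 a negative difference, with a median of 0.05. The list's mean log2 level was 3.36, 3.25, 3.45, 3.42 and 3.43 in Fntb KO 1 to Fntb KO 5 and 3.31 to 3.38 in WT, so 3 Fntb KO arrays lay above every WT array. Its summed linear level was 167 to 174 in WT and 156 to 202 in Fntb KO. The highest sum, in Fntb KO 5, came from Chil3, which read 5.93 there and 4.32 to 4.79 in the other arrays. Without Chil3, left out after its values were seen, the sum was 140.1 to 148 in WT and 150.1, 133, 157, 154 and 141 in Fntb KO 1 to Fntb KO 5. On that measure the 3 arrays with the highest S100a8, Fntb KO 3, Fntb KO 1 and Fntb KO 4, were also the 3 above every WT array. On the mean log2 level of all 15 markers the 3 were instead Fntb KO 3, Fntb KO 4 and Fntb KO 5, with Fntb KO 1 within the WT range. The match thus depends on a measure chosen after the values were seen, and nothing is read from it. Ngp was highest in Fntb KO 3 (4.22) and Fntb KO 1 (3.99), with a difference between the groups of 0.09 (adjusted p 0.960), and Stfa2l1 had the largest difference of the list (0.20, adjusted p 0.767).

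Of 13 monocyte or macrophage markers 0 passed the threshold and 1 had an unadjusted p under 0.05, beside 9.26% of all genes. That 1 was C1qb, lower in Fntb KO (-0.26, adjusted p 0.523). The largest difference was in Csf1r (-0.28, adjusted p 0.570). Of the 13 markers 9 had a negative and 4 a positive difference, with a median of -0.10. Their summed linear level was 444 to 524 in WT and 359 to 557 in Fntb KO, the 2 highest Fntb KO values being those of Fntb KO 3 (557) and Fntb KO 1 (539). The list's mean log2 level, on which bright genes weigh less, was 4.69 and 4.66 in these 2 arrays, within the 4.57 to 4.71 of WT. Both arrays were also the highest for S100a8 and S100a9. The part of neutrophils, monocytes or macrophages in the values of S100a8 and S100a9 was not tested.

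**Figure D5:**
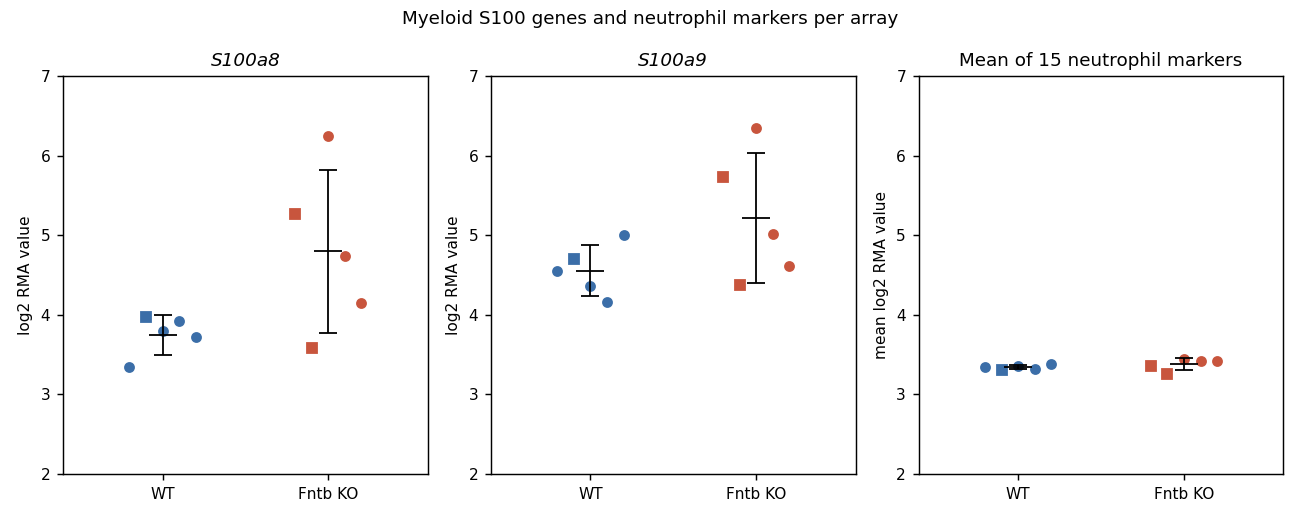
Log2 RMA value of S100a8 and S100a9 and the mean log2 value of 15 neutrophil markers in each of 5 WT (blue) and 5 Fntb KO (red) arrays, with the group mean and SD; squares are the 3 low-median arrays. Fntb KO 3 reaches 6.25 for S100a8 and 6.35 for S100a9, while the marker mean stays between 3.25 and 3.45 in Fntb KO.

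The genes most like S100a8 over the 10 arrays began with S100a9, at a root mean square difference of 0.376. It was followed by Mir181a-2, a gene of the miR-181 family that tunes T cell receptor sensitivity, at 0.412, by the acute-phase protein gene Orm1 at 0.458, by Mir302b at 0.559 and by Zfp995 at 0.612. Mir181a-2 went from 3.45 ± 0.22 to 4.40 ± 0.50 (log2 levels, SD, n = 5 each). Its adjusted p was 0.0379, and it was highest in Fntb KO 3 (5.16) and Fntb KO 1 (4.59). That call was kept without Fntb KO 2 or Fntb KO 3 and lost without each of the other 8 arrays and without the 3 low-median arrays, at differences of 0.88 to 1.03. Orm1 (0.61), Mir302b (0.39) and Zfp995 (0.42) did not pass (adjusted p 0.494, 0.546 and 0.571). Mir302b (2.29 in WT and 2.68 in Fntb KO) and Zfp995 (3.61 and 4.04) had means below 4.19 in both groups. Mir181a-2 had a mean below it in WT, while Orm1 lay above it (4.99 and 5.60). Little can be read from profiles at such levels.

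The other marker lists give the setting of the other 8 S100 and annexin genes. Of 8 T cell markers 0 passed, with a median difference of -0.10, and their summed linear level was 11499 to 13413 in WT and 10529 to 12637 in Fntb KO. The largest difference among them was in Cd3e (-0.16, adjusted p 0.666). Of 8 Treg markers 0 passed and 5 had an unadjusted p under 0.05, 4 lower and 1 higher, beside 9.26% of all genes, with a median difference of -0.28 and summed levels of 6846 to 7305 and 6224 to 6726, which did not overlap. The largest was in Ikzf2 (-0.41, adjusted p 0.236). Gpr83 differed the other way by nearly as much (0.40, adjusted p 0.0604), with every Fntb KO array above every WT array, as in 1.01% of all genes. In 2 of the 8 every Fntb KO array lay below every WT array, as in 1.65% of all genes. They were Foxp3 (-0.14, adjusted p 0.601) and Ctla4 (-0.39, adjusted p 0.0778). Over all arrays the negative differences in both lists were smaller in size than those of S100a4, S100a6, S100a10, S100a11 and Anxa2. The difference of Ikzf2 (SE 0.130) was close to that of S100a10 (-0.46, SE 0.111). It was larger in size than those of Anxa1 (-0.27), Anxa6 (-0.13) and S100a13 (-0.11). Within the low-median arrays Ikzf2 (-0.64) differed by more than S100a10 (-0.42) and S100a11 (-0.40), and within the others by less (-0.26 against -0.57 and -0.52). The part of the markers in the S100 values was not tested.

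Among 41 markers of 6 other kinds of cell, 1 passed, as lower, beside 0.807% of all genes lower and 0.302% higher. It was Nkg7 of the CD8 T or NK list (-0.79, adjusted p 0.0126, but 0.0750 without the 3 low-median arrays). Of the 9 genes of that list 7 had a positive difference, and its median was 0.11. In B or plasma cell markers the largest difference was that of Cd79b (-0.41, adjusted p 0.494), while 5 of 8 were positive, with a median of 0.06. In dendritic cell markers it was that of Bst2 (-0.36, 0.385), while 5 of 7 were positive, with a median of 0.02. Pf4 led the platelet markers (0.29, 0.395), of which 2 of 5 were positive, with a median of -0.01. Pdgfrb led the stromal or endothelial markers (0.28, 0.468), of which 7 of 8 were positive, with a median of 0.06. Car1 led the erythroid markers (-0.23, 0.568), of which 2 of 4 were positive, with a median of 0.002. An unadjusted p under 0.05, as in 9.26% of all genes, was found in 2 of 5 platelet markers, both higher. It was also found in 2 of 8 B or plasma cell markers, 1 lower and 1 higher. The CD8 T or NK, dendritic and stromal or endothelial lists had 1 each, and the erythroid list 0. In 1 platelet marker every Fntb KO array lay above every WT array, as in 1.01% of all genes.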

How the data were processed

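Each column of the deposited tables is 1 array. Per the submitters' processing notes, the authors' log2 values were made with RMA in Affymetrix Expression Console 1.1, which corrects the background, quantile normalizes the arrays and summarises each probe set. Other settings of that step: not stated in the sources used here. Of 41345 probe sets, 23521 had 1 gene symbol in GEO's platform annotation, and 1820 with several and 16004 unlisted ones were left out. The probe set with the highest mean was kept for each of 22180 genes. Fntb KO was compared with WT by lmFit and eBayes in limma 3.58.1 (R 4.3.3) without covariates, with Benjamini-Hochberg adjustment over all genes and a threshold of 0.05, and the fit was tested on simulated data. Every adjusted p is from this fit unless another is named. The number of arrays limits the precision, and no detection calls were used.

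The genes described, the lists and the tests were chosen with earlier results of these data known, and the motifs after the values were seen. Named beside the 10 genes are Fntb, Foxp3, the genes past the threshold or else the 2 with the largest difference in each family list, 1 leading gene per marker list (with the 2 most variable in Fntb KO for neutrophils), and the 5 nearest profiles of S100a4, S100a6 and S100a8. S100a5, Gpr83, Ctla4, C1qb and the markers named in lists were added after their values were seen. Replicate numbers follow the accession order and pair nothing. Alternatives were another quantile normalization, a filter on dim genes, a trended and robust variance, array weights, other rules for probe sets, the table the authors supplied, a minimum change of 0.5, a block for or the removal of the 3 arrays with the lowest medians, and leaving out each array in turn.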

Additional observations from a re-analysis of the deposited data

Results flagged for a closer look

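In 5 of the 80 groups of 5 arrays examined, 1 array stood far from the other 4, by a gap above Dixon's critical value. For groups not chosen by their values, chance gives about 1 in 20. Many of the genes were chosen by their difference, and Chil3 and Ngp by their spread in Fntb KO. That rate therefore need not hold here. None of these groups belonged to the 10 S100 and annexin genes described. S100z was 4.19 in Fntb KO 1 and 2.56 to 2.83 in the other Fntb KO arrays. Chil3, a neutrophil and macrophage marker, was 5.93 in Fntb KO 5 and 4.32 to 4.46 in the others. Bst2 was 6.60 in Fntb KO 5 and 7.08 to 7.25 in the others. Pf4 was 2.58 in WT 1 and 2.91 to 3.04 in the others. Lce1a2 was 5.91 in WT 5 and 4.99 to 5.21 in the others.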

How the results depend on the processing

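The number of genes called over the whole table moved with the arrays: 67 genes were higher and 179 lower with all arrays, 41 and 109 without the 3 low-median arrays, and 275 were lower with those arrays as a block. Leaving out 1 array at a time gave 32 to 61 higher and 95 to 192 lower. Of the 10 S100 and annexin genes, 2 to 4 were called lower and 0 higher under the alternatives run, S100a4 and S100a6 in all 20, S100a11 in 11 and S100a10 in 6. Of the 10 fits that leave out 1 array, S100a11 passed in 2 and S100a10 in 1. Several alternatives could not change a difference of these genes, as each has 1 probe set and the 2 deposited tables are equal. They were the probe set rules, the authors' table, the minimum change, the filter on dim genes and the trended variance. No sign of these 10 genes turned in any alternative run, although S100a13 came to -0.006 without Fntb KO 5. Fntb kept its call in all 20. Differences of 3 genes that were not called turned sign: S100z (0.24) to -0.079 without the low-median arrays and to between -0.0602 and 0.348 without single arrays; Chil3 (-0.01) to 0.0154, 0.0485 and 0.223 with a second quantile normalization, the block and without the low-median arrays, and to between -0.313 and 0.0907 without single arrays; and Ngp (0.09) to -0.0232 without the low-median arrays and to between -0.0468 and 0.245 without single arrays. The cause was not tested. Anxa1 and the other dim genes have no value under the filter on dim genes. No paired analysis was possible because the labels give no shared replicate numbers. Signal near or below 4.19 limits what can be said of Anxa1, S100a8 in WT and most neutrophil markers. The same holds for Ccr4 and Myo1f in Fntb KO, Mir181a-2 in WT, Mir302b and Zfp995.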
